A study of Mus musculus with 22 samples.

Results

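The zinc finger genes Zfp500 to Zfp999 were examined in the lumbar spinal cord of 22 mice with a painful knee joint by RNA sequencing. The members are all rows of the expression table with a symbol in that range, which gave 189 of 17306 genes. The family was chosen from the late comparison, in which Zfp560, Zfp808 and Zfp991 had been seen among the genes with the largest values. For that reason the late values are given as a description, without a p-value for any member. Early mice share no animal with the late comparison, and the early values are tested.

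Most of these genes encode proteins with a chain of C2H2 zinc fingers, small folds in which a zinc ion is held by a pair of cysteines and a pair of histidines. Each finger can read a few bases of DNA, and a linker of the residues TGEKP often joins one finger to the next. Many members also carry a KRAB domain, which binds the co-repressor Trim28 and through it the histone methyltransferase Setdb1. KRAB zinc finger proteins are best known for silencing retrotransposons, and in the mouse their genes lie in large clusters of recent duplicates. Members without KRAB have varied roles in transcription, neural differentiation and RNA handling.

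All mice were C57BL6J wildtypes aged 12–14 weeks at collection and received 1 mg of monoiodoacetate (MIA) into the knee, an inhibitor of glycolysis that damages joint cartilage. SAFit2 inhibits the co-chaperone FKBP51 and was given as SAFit2-VPG, a slow-release phospholipid gel, at 100 mg/kg under the skin, while Vehicle mice received the gel alone. Early mice (5 Early SAFit2 and 6 Early Vehicle) were injected with gel on days -3 and 4 around MIA, and late mice (5 Late SAFit2 and 6 Late Vehicle) on days 20 and 27. Spinal cord of segments L4–L6 was collected on day 30. The model has no mice without MIA among these groups, and the labels mark early and late mice as separate batches.

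Levels are given as log2 CPM, the logarithm to base 2 of a gene's reads scaled to the size of the library. Between 11352989 and 24433349 reads per library fell on genes. Markers of neurons, oligodendrocytes, astrocytes and microglia and the lumbar genes Hoxa10, Hoxc10 and Hoxd10 were present in every library, with Snap25 between 11.18 and 11.88 log2 CPM and Hoxa10 between 5.58 and 6.45. The summed level of the skeletal muscle genes Acta1, Ckm and Myh4 reached 6.74 log2 CPM in one Late SAFit2 mouse and lay between -0.79 and 2.34 in the early mice and between 0.53 and 1.37 in the Late Vehicle mice. The part of this in the results below was not tested. In tissue of mixed cells, fewer cells of a type and less RNA per cell cannot be told apart.

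The sequences of single fingers show how differently the members are built at the level of bases. The lines give the coding strand of the first finger in each gene that is followed directly by TGEKP, with the codons of that linker in capitals. They were read from the GENCODE M21 transcripts (GRCm38), and every stretch lies in a coding exon. Zfp560 (chr9:20348647-20348724, minus strand), Zfp808 (chr13:62171445-62171522, plus strand) and Zfp991 (chr4:147178891-147178968, plus strand) had high values in Late SAFit2 mice. Zfp787 (chr7:6132888-6132965, minus strand), Zfp668 (chr7:127868070-127868147, minus strand) and Zfp771 (chr7:127254024-127254101, plus strand) had low values there.
Zfp560: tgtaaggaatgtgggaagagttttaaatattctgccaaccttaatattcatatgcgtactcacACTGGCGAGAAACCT
Zfp808: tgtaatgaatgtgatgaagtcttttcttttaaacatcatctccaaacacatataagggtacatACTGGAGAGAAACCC
Zfp991: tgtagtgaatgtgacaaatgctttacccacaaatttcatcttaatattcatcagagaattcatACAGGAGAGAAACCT
Zfp787: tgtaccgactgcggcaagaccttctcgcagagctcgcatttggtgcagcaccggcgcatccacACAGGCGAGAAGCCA
Zfp668: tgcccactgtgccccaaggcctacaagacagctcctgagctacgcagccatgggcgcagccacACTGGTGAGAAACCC
Zfp771: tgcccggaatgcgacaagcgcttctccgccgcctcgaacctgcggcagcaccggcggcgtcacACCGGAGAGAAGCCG

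Each stretch is 78 bases long and encodes the same fold, with its cysteines, histidines and linker in the same places. G and C made up 38.5% of the stretch in Zfp560, 34.6% in Zfp808 and 33.3% in Zfp991. They made up 61.5% in Zfp787, 62.8% in Zfp668 and 70.5% in Zfp771. Over its whole transcript Zfp787 had only 47.0% GC, against 51.4% in Zfp668 and 68.7% in Zfp771. Over whole longest transcripts the GC content of the 188 members with a match in the annotation ran from 33.2% to 68.7% with a median of 43.3%, against a median of 49.7% for all genes tested.

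Of the 185 members with a coding sequence, 110 held a KRAB signature (a short pattern of conserved residues of the KRAB A box) and 75 did not. Only this pattern was searched, in the longest coding sequence, so a member without a match may still hold a KRAB domain. Below, KRAB members are those with the signature. Members without KRAB are those with a coding sequence but no match. The number of fingers in the longest coding sequence had a median of 10 and ranged from 0 to 33. KRAB members were richer in A and T, with a median GC content of 40.7% in the 108 that were tested against 51.9% in the 75 tested members without KRAB. In all, 94 members fell into 12 clusters of at least 5 members with gaps of at most 1 Mb. The largest lay on chromosome 17 between 21383748 and 22867134 and held 14 members, all with KRAB. The 10 members between 145868794 and 147848366 on chromosome 4 include Zfp991.

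The duplicates resemble each other closely enough that reads can fit more than one gene. At the read length of 75 bases, 37 of 188 members shared at least 10% of the runs in their longest transcript with another gene, and 105 shared none. Zfp708, Zfp965 and Zfp967 shared 100.0% of their runs, Zfp968 shared 99.6% and Zfp781 shared 94.4%. Zfp991 shared 80.0%, most of it with the pseudogene Znf41-ps, and Zfp808 shared 26.0%, most of it with Zfp934. Zfp560 shared no run. The handling of reads that fit several genes is not given in the sources used here, so values of the members that share runs are uncertain.

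Of the 189 members, 186 passed the filter on low values (log2 CPM of at least -1 in 5 libraries). Zfp534, Zfp600 and Zfp986, all in the chromosome 4 cluster, had at most 21 reads in any mouse and were not tested. The members were expressed at low to moderate levels, with a median of 3.29 log2 CPM against 3.97 for all genes tested. Per kilobase of longest transcript the median level was 1.65 against 2.31 log2 CPM. The highest levels per kilobase were those of Zfp706 at 5.39 log2 CPM (5.15 to 5.78 over the 22 mice), which encodes a small protein with a single finger, and Zfp664 at 4.85 (4.61 to 5.15). They were followed by Zfp970 at 4.57 (3.98 to 5.18), Zfp869 at 4.52 (4.07 to 4.97) and Zfp637 at 4.24. From Zfp664 down, the ranges of neighbours in this order overlap. The lowest level per kilobase was -3.77 for Zfp541.

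In late mice some members were higher and some lower with SAFit2, and most were called in neither direction. A gene was called at an adjusted p under 0.05 (limma, Benjamini-Hochberg over 16765 genes) and a change of at least 1.2-fold. By this measure 27 of 186 members were called higher, where 5.33% of all genes tested were called higher, and 13 were called lower, where 6.72% of all genes were called lower. The median late log2 fold change of the members was 0.15, against -0.05 over all genes. Since the family was chosen from this contrast, nothing is read from these shares. The counts depended on which mice were included. With Late SAFit2 mouse 2, 4 or 5 or Late Vehicle mouse 1, 3, 4 or 5 left out, 0 members were called higher. In these runs 0 were called lower, save 1 without Late SAFit2 mouse 4. At an unadjusted p under 0.05, 46 to 56 members were higher and 23 to 25 lower in them. The share of all genes at that unadjusted threshold is not given here, so nothing is read from these ranges. Without Late Vehicle mouse 6, 54 were called higher and 24 lower, and without Late Vehicle mouse 2 the counts were 45 and 20. Of 189 Zfp genes with numbers outside this range, 31 were called with all mice. In each run with 0 members called higher, 0 of them were called. Without Late Vehicle mouse 6 they came to 69, and without mouse 2 to 52. The share of all genes called in these runs is not given here, so nothing is read about the members from the changes.

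Zfp560, a KRAB gene with 15 fingers on chromosome 9, had the widest gap between the late groups. Its levels were 2.82, 2.40, 2.92, 3.35 and 3.25 log2 CPM in the 5 Late SAFit2 mice and ranged from 1.28 to 1.98 with a median of 1.96 in the 6 Late Vehicle mice. Every Late SAFit2 mouse lay above every Late Vehicle mouse, and the log2 fold change was 1.15 ± 0.23 (SE). Early mice lay between 1.94 and 3.01 in both groups, so that the late Vehicle mice were the low ones among the 4 groups. The values rest on 40 to 138 reads per late mouse.

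Zfp991, with 11 fingers and a KRAB signature, showed 3.88, 4.84, 4.11, 4.42 and 4.03 log2 CPM in Late SAFit2 mice and 2.82 to 3.77 (median 3.26) in Late Vehicle mice. The late groups did not overlap and the log2 fold change was 1.03 ± 0.19 (SE). Early mice of both treatments lay between 2.96 and 3.81, within or close to the range of the Late Vehicle mice, which places the Late SAFit2 mice as the high ones. Reads of this gene are the least certain of the leading members because of its shared runs.

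Zfp808, with 22 fingers on chromosome 13, had 3.18, 2.23, 2.62, 2.85 and 3.15 log2 CPM in Late SAFit2 mice. In 5 of the 6 Late Vehicle mice it lay between 0.84 and 1.83, and in Late Vehicle mouse 6 it was 3.01. That single mouse made the late groups overlap, and the log2 fold change was 1.11 ± 0.29 (SE).

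Of the 13 members called lower, 9 had no KRAB signature and 3 had one. Zfp771 had 3.29, 2.85, 2.72, 2.49 and 1.93 log2 CPM in Late SAFit2 mice and 2.96 to 5.28 (median 4.50) in Late Vehicle mice, which gave a difference of -1.59 ± 0.39 (SE) on the log2 scale. Late Vehicle mice 2 and 6, at 2.96 and 2.99, were the low ones of their group and overlapped the Late SAFit2 mice. Zfp668 had 1.98, 1.62, 2.39, 1.93 and 0.93 against 2.58 to 3.22 (median 2.99), without overlap, and Zfp787 had 3.24, 3.20, 2.90, 2.04 and 3.38 against 3.39 to 4.26 (median 3.89), also without overlap. Their log2 fold changes were -1.16 ± 0.24 and -0.89 ± 0.23 (SE). Zfp865 (-1.41 ± 0.28), the pseudogene Zfp783 (-1.31 ± 0.27) and Zfp775 (-0.75 ± 0.18) complete the members with the lowest p-values in this direction. The KRAB gene Zfp819, named for its size, was at -1.53, a value that rests on 0 to 6 reads in Late SAFit2 mice and 4 to 9 in Late Vehicle mice.

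**Figure D1:**
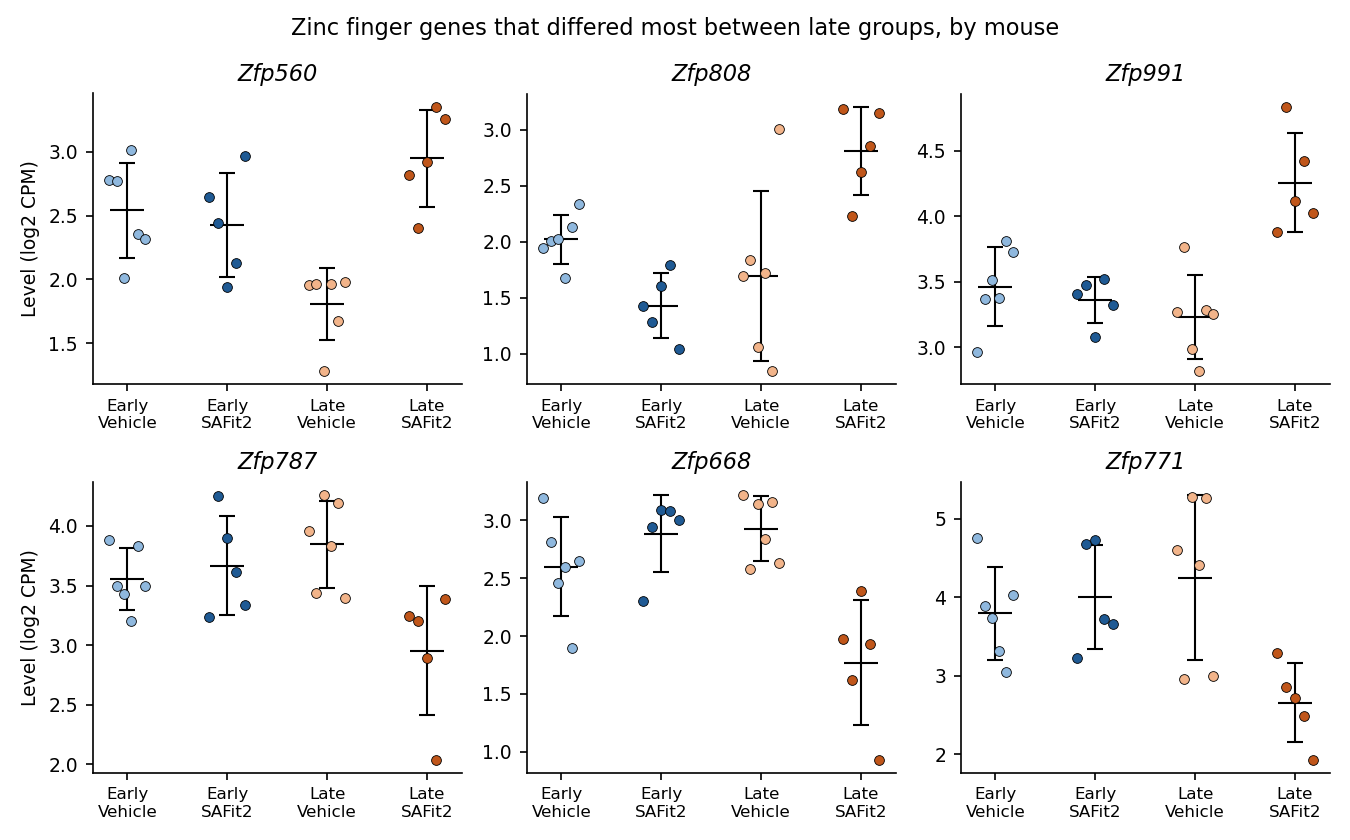
Level in log2 CPM (y axis, a different range in each panel) of 6 zinc finger genes in every mouse of the 4 groups, with points for mice, a bar for the mean and whiskers for 1 SD. In late mice Zfp560, Zfp808 and Zfp991 sit higher with SAFit2 and Zfp787, Zfp668 and Zfp771 lower, while the early groups overlap in all 6 genes.

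The late groups did not overlap for 5 of the 186 members (Zfp560, Zfp668, Zfp991, Zfp706 and Zfp787), where 1.71% of all genes tested did not overlap. Zfp706 was separated by a small step, with 7.79, 7.92, 7.69, 7.92 and 7.84 log2 CPM against 7.33 to 7.68. Among the other members called higher, Zfp820, Zfp976 and Zfp947, chosen after their values were seen, had the largest log2 fold changes at 1.73, 1.18 and 1.09. Zfp943 (1.01 ± 0.24), Zfp946 (0.75 ± 0.18) and Zfp654 (0.72 ± 0.17) completed the members with the lowest p-values.

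The late difference of a member varied with its GC content. The 53 tested members with under 40% GC were all above 0, with a median late log2 fold change of 0.58, and 22 of them (41.5%) were called higher and 0 lower, where 28.1% of the genes outside the family in this band were called higher. Between 40% and 45% GC the median was 0.28 in 51 members. Of these 9.8% were called higher and 2.0% lower, against 14.5% and 0.1% of the genes outside the family. Between 45% and 50% GC the median was 0.03 in 24 members. Of these 0% were called higher and 8.3% lower, against 2.87% and 0.88% outside the family. At 50% GC or more the median was -0.38 in 57 members, of which 0 were called higher and 10 (17.5%) lower. In that band 13.5% of the genes outside the family were called lower. Over 185 members Spearman's rho of the late log2 fold change with GC content was -0.85, and over 16023 genes outside the family it was -0.67, both across genes, which are not independent replicates. In the same 4 bands the genes outside the family had medians of 0.44, 0.30, 0.08 and -0.31.

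The 108 KRAB members had a median of 0.39, with 22 called higher and 3 lower. In the 75 members without the signature the median was -0.23, with 5 called higher and 9 lower. Over all genes tested, 5.33% were called higher and 6.72% lower. The median GC content was 40.7% with the signature and 51.9% without it. Of genes outside the family, 28.1% were called higher under 40% GC and 13.5% lower at 50% GC or more. Nothing is read about KRAB from these counts. Within the band of 40% to 45% GC, 41 KRAB members and 9 members without KRAB both had a median of 0.28. Under 40% GC the medians were 0.60 in 45 KRAB members and 0.51 in 8 members without KRAB. Between 45% and 50% GC they were 0.03 in 14 and 0.04 in 10 members, and at 50% GC or more -0.20 in 8 KRAB members and -0.37 in 48 members without KRAB. These medians are descriptions and were not tested.

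**Figure D2:**
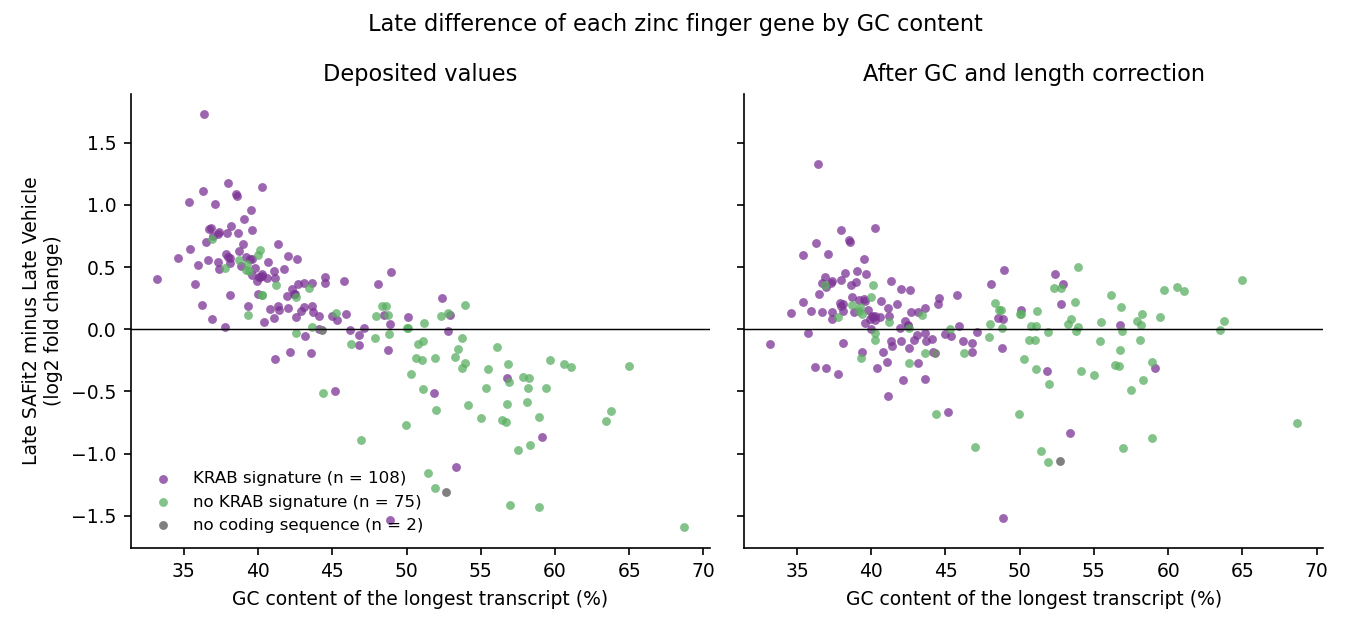
Late log2 fold change (y axis, SAFit2 minus Vehicle) of each tested zinc finger gene against the GC content of its longest transcript in percent (x axis), before and after GC and length correction, coloured by KRAB signature. On the deposited values the points run from above 0 at low GC to below 0 at high GC, with Spearman's rho at -0.85, and after the correction rho is -0.36.

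The same gradient was present in the libraries as a whole. For each library the slope of log2 CPM on GC content was taken over 16023 tested genes outside the family. The slope was -0.05, -0.33, -0.22, -0.47 and -0.39 log2 CPM per 10 points of GC in the 5 Late SAFit2 mice. In Late Vehicle mice 1, 3, 4 and 5 it was positive, at 0.34, 0.49, 0.25 and 0.39, and in Late Vehicle mice 2 and 6 it was negative, at -0.16 and -0.32. The means were -0.29 ± 0.16 (SD, n = 5) and 0.17 ± 0.33 (SD, n = 6), a difference of -0.46. This trend was known when the family was chosen, and its late difference is a description without a p. Early SAFit2 and Early Vehicle mice had means of 0.07 ± 0.17 and 0.02 ± 0.17, a difference of 0.05 (two-sided exact permutation p = 0.61).

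The levels of the members followed this slope across mice. The median level of the members under 40% GC, relative to their mean over the 22 mice, was -0.00, 0.47, 0.26, 0.60 and 0.47 log2 CPM in Late SAFit2 mice. It was 0.10 and 0.37 in Late Vehicle mice 2 and 6 and -0.54, -0.70, -0.37 and -0.46 in Late Vehicle mice 1, 3, 4 and 5. Over the 22 libraries Pearson's r between slope and this median was -0.97 (Spearman's rho -0.96), and within the 6 Late Vehicle mice it was -0.99. For the members of 50% GC or more it was 0.94 over all libraries (Spearman's rho 0.95). The libraries share genes and scaling, so these correlations describe the table only.

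**Figure D3:**
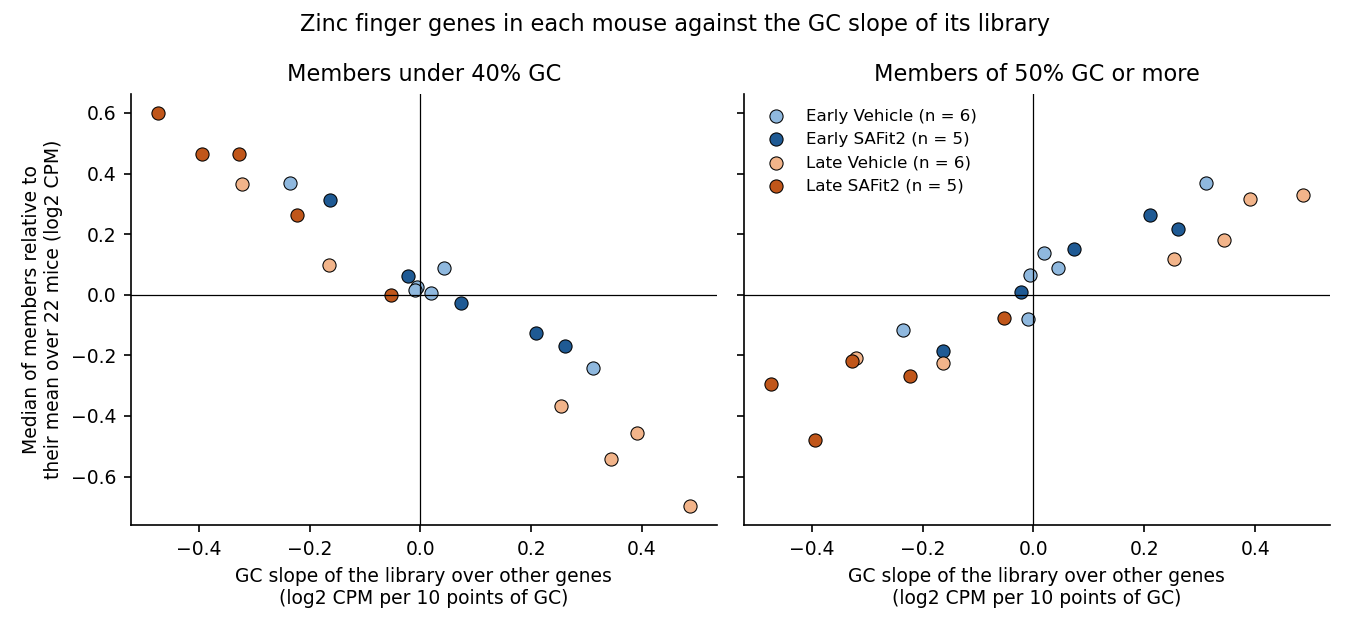
Median level of the zinc finger genes under 40% GC (left) and of 50% GC or more (right) in each mouse, relative to their mean over the 22 mice (y axis, log2 CPM), against the GC slope of the library over genes outside the family (x axis, log2 CPM per 10 points of GC). Each point is a mouse, coloured by group, and Late Vehicle mice 2 and 6 lie with the Late SAFit2 mice rather than with the rest of their group.

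Each library's trend on GC content and length was then fitted to genes outside the family and removed. The correction also removes any part of a treatment difference that follows GC content. By limma 0 of 185 members were called higher and 0 lower, where 0% of all 16208 genes were called in either direction. At an unadjusted p under 0.05, 23 members were higher and 15 lower. The share of all genes at that unadjusted threshold is not given here, so nothing is read from these counts. With limma voom on reads recovered from the deposited values, without the correction, 16 members were called higher and 6 lower. The share of all genes called in that run is not given here. All 27 members called higher stayed above 0 after the correction, with a median of 0.75 before and 0.38 after. All 13 called lower stayed below 0, with a median of -1.11 before and -0.83 after. These members were picked by their late values in the same mice, so nothing is read from the kept signs. Zfp560 went from 1.15 to 0.82, Zfp808 from 1.11 to 0.69, Zfp991 from 1.03 to 0.59 and Zfp771 from -1.59 to -0.75. Zfp787 was -0.89 before and -0.95 after, and Zfp668 was -1.16 and -0.98. The median of the members under 40% GC was 0.22 after the correction, against 0.08 for genes outside the family in the same band, and in the other 3 bands the members' medians were 0.01, -0.01 and 0.02.

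In the chromosome 17 cluster all 14 members were above 0 in late mice (median 0.76, highest 1.73 for Zfp820). Of these 7 were called higher, where 5.33% of all genes were. The cluster had a GC content of 38.0% at the median. Under 40% GC, 28.1% of genes outside the family were called higher, with a median late log2 fold change of 0.44. After the correction the median of the cluster was 0.37. The 7 tested members of the chromosome 4 cluster had a median of 0.77 before and 0.36 after. The 9 members of a cluster on chromosome 2 between 174643534 and 178078476, with a GC content of 40.3% at the median, had 0.19 before and -0.18 after. A GC-rich cluster of 6 members on chromosome 7 between 4915217 and 5053723, none with KRAB, had -0.68 before and 0.03 after.

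In early mice no member was called. By limma 0 of 186 were called in either direction, where 0% of all genes were, and by limma voom the count was also 0. At an unadjusted p under 0.05 there were 0 members higher and 2 lower with SAFit2 (Zfp937 and Zfp808), where 2.48% of all genes passed that threshold. The median early log2 fold change of the members was -0.00, against 0.01 over all genes, and the medians in the 4 GC bands ranged from -0.03 to 0.01. The median SE of a member was 0.22 on the log2 scale. For 102 of 186 members the 95% interval of the early difference lay within a change of 1.5-fold, and the intervals of the others do not exclude a larger one.

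Zfp808 was low in Early SAFit2 mice, where it was high in Late SAFit2 mice. Its levels were 1.43, 1.28, 1.60, 1.80 and 1.04 log2 CPM in Early SAFit2 mice and 1.67 to 2.34 (median 2.02) in Early Vehicle mice, so that only a pair of mice overlapped. The log2 fold change was -0.59 ± 0.29 (SE), with an exact permutation p of 0.0065, unadjusted and among 186 such tests, of which 5 were under 0.05. Its adjusted p over all genes was 1.00 (limma). Zfp937 was at -0.41 ± 0.17 (SE, exact permutation p = 0.039, adjusted limma p = 1.00), and the pseudogene Zfp783 at -0.36 ± 0.27 (exact permutation p = 0.0043, adjusted limma p = 1.00). The other members of lowest p were Zfp872 (-0.95 ± 0.68), Zfp950 (-0.36 ± 0.26) and Zfp983 (-0.22 ± 0.16, exact permutation p = 0.024) on the negative side and Zfp507 (0.37 ± 0.20) and Zfp575 (0.56 ± 0.38) on the positive side, each with an adjusted limma p of 1.00. The early groups did not overlap for 0 members, where 0.352% of all genes did not overlap.

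Zfp560 and Zfp991 showed no early difference that these groups could detect. Zfp560 was 1.94 to 2.96 log2 CPM in Early SAFit2 and 2.01 to 3.01 in Early Vehicle mice, a log2 fold change of -0.12 with a 95% interval from -0.59 to 0.35. Zfp991 was 3.07 to 3.52 in Early SAFit2 and 2.96 to 3.81 in Early Vehicle mice, with -0.10 and an interval from -0.49 to 0.29.

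Both of the largest early values on the positive side, those of Zfp982 and Zfp558, rested on one mouse. Zfp982, a KRAB gene of the chromosome 4 cluster, had 3.22 to 4.01 log2 CPM in 5 Early Vehicle mice and -2.42 in Early Vehicle mouse 4, which is 1 read, where each of the other 21 mice had at least 118 reads. Its early log2 fold change was 1.03 ± 0.70 (SE) with that mouse and 0.05 ± 0.30 without it. The same mouse had -1.57 log2 CPM of Zfp558 (3 reads), against 0.69 to 2.29 in the other 21 mice, and 0.55 of Zfp712, against 1.80 to 3.53. Without it the early values of these genes were 0.19 and 0.13 instead of 0.68 and 0.48. Early Vehicle mouse 4 lay more than 1 log2 unit below the rest of its group for 8 members, the most of any mouse, and above it for 0. The share of all genes that did so is not given here, so nothing is read about the members from this count. Of the 8, Zfp660 and Zfp541 had 0 reads in this mouse and Zfp953 had 11. The mouse had 14079545 reads on genes, the fewest of the early mice. Zfp991, Zfp979 and Zfp984, in the same cluster as Zfp982 and shown for that reason, were within the range of the other Early Vehicle mice there, at 3.38, 3.08 and 2.88 log2 CPM.

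Late and early mice differed in some members in both treatments. The timing and the batch of the labels coincide, so these differences cannot be told apart from batch. Among Vehicle mice 19 members were called lower in late than in early mice, where 5.82% of all genes were called lower, and 0 were called higher, where 3.29% of all genes were. The count of 19 became 9 without Early Vehicle mouse 5 or Late Vehicle mouse 1, 10 without Late Vehicle mouse 3, 11 without Late Vehicle mouse 5 and 36 without Late Vehicle mouse 6. With GC and length correction 5 members were called higher and 17 lower. The share of all genes called in these runs is not given here, so nothing is read about the members from the changes. Among SAFit2 mice 19 were called lower (11.3% of all genes) and 12 higher (9.2% of all genes). The Vehicle comparison shares the Late Vehicle mice with the late comparison described above. The following genes were chosen after their values were seen.

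Zfp692, a GC-rich gene without KRAB on chromosome 11, had the largest difference. Its levels were 3.07 to 4.41 log2 CPM in Early Vehicle and 3.12 to 4.23 in Early SAFit2 mice, and 0.80 to 2.28 in Late Vehicle and 0.75 to 1.73 in Late SAFit2 mice. All 11 late mice lay below all 11 early mice. The log2 fold change of late against early was -2.13 ± 0.29 (SE) in Vehicle and -2.52 ± 0.32 in SAFit2 mice, and -2.18 and -2.10 after GC and length correction. Zfp950, a KRAB gene with 35.8% GC on chromosome 19, had 3.64 to 5.23 in Early Vehicle and 3.00 to 4.16 in Early SAFit2 mice, against 2.14 to 3.14 in Late Vehicle and 2.43 to 3.19 in Late SAFit2 mice. Its differences were -1.74 ± 0.25 and -1.01 ± 0.27 (SE), or -1.45 and -1.14 after the correction. Zfp740, Zfp810 and Zfp970 were the other members called lower in both treatments, with -0.37, -0.65 and -0.56 in Vehicle and -0.62, -0.61 and -0.46 in SAFit2 mice. The share of all genes called lower in both treatments is not given here, so nothing is read from the number of such members.

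Zfp760 was called lower in Vehicle mice and not in SAFit2 mice. For the difference between the treatments itself (limma, interaction term) 0 members were called, as were 0 of all genes. Zfp760 had 3.52 to 3.89 log2 CPM in Early Vehicle mice and 2.04 to 3.01 in Late Vehicle mice, which differed by -1.25 ± 0.21 (SE). In Late SAFit2 mice it spread from 2.38 to 3.91, with -0.20 ± 0.23 (SE) against Early SAFit2 mice.

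**Figure D4:**
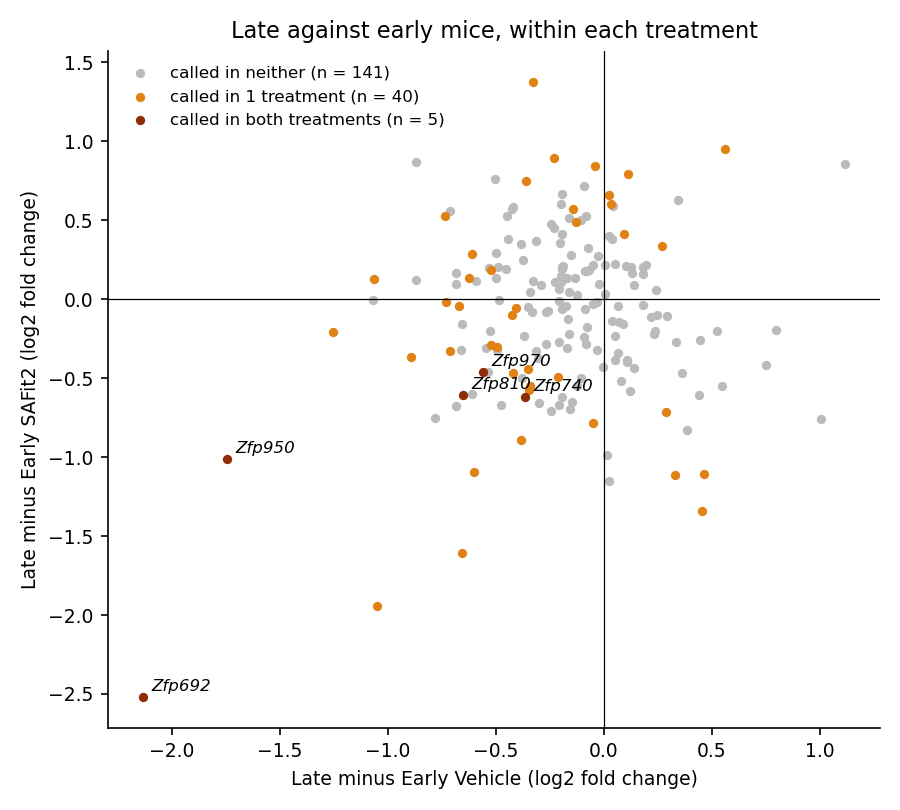
Late minus early log2 fold change of each tested zinc finger gene in SAFit2 mice (y axis) against that in Vehicle mice (x axis), coloured by whether it was called in both treatments, in 1 or in neither. Zfp692 and Zfp950 lie farthest below 0 among the 5 genes called in both.

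**Figure D5:**
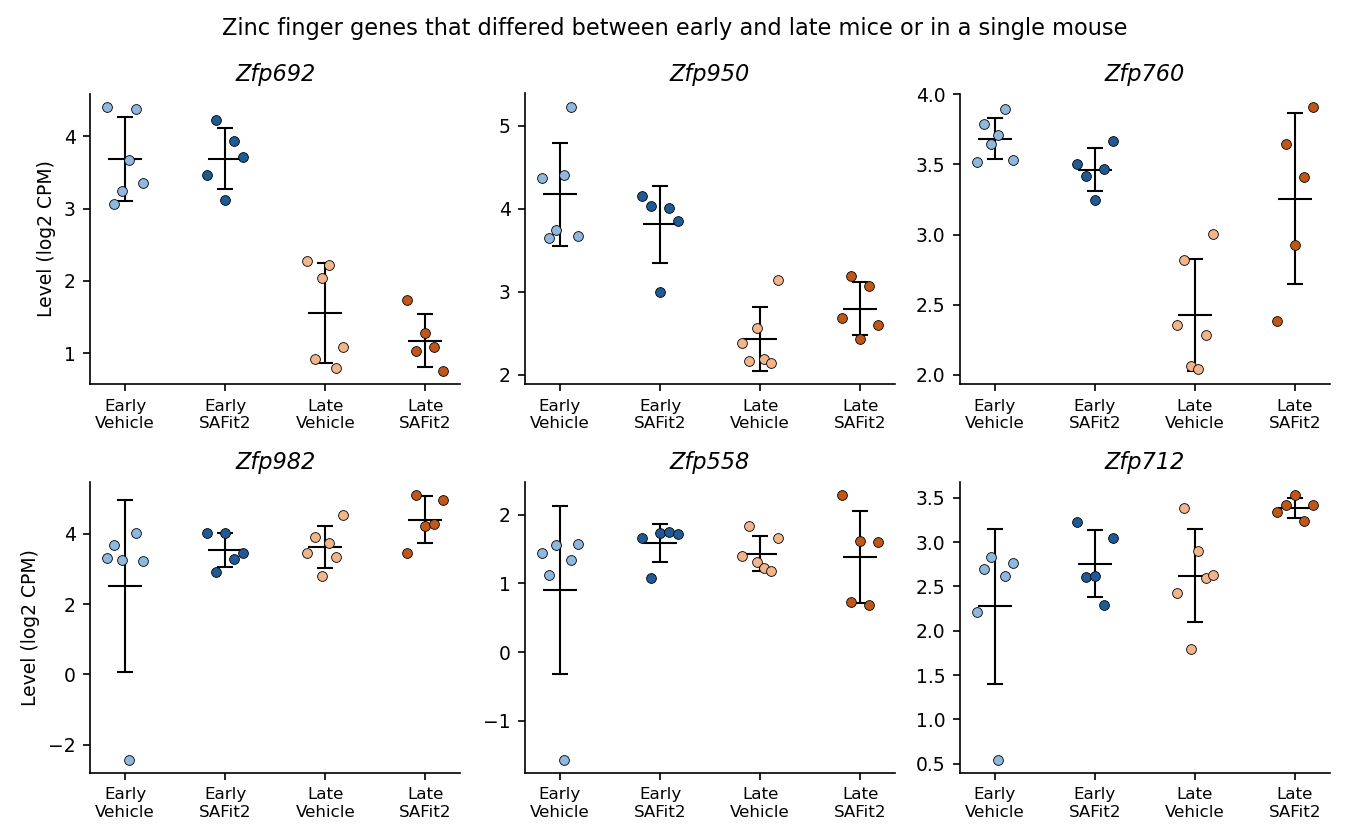
Level in log2 CPM (y axis, a different range in each panel) of 6 zinc finger genes in every mouse of the 4 groups, with points for mice, a bar for the mean and whiskers for 1 SD. Zfp692 and Zfp950 are lower in both late groups, Zfp760 is low in Late Vehicle mice, and Zfp982, Zfp558 and Zfp712 are low in Early Vehicle mouse 4.

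Of the 17 members listed for a textbook role, 2 were called higher in late mice and 0 lower, where 5.33% and 6.72% of all genes were. Zfp638, which takes part in silencing unintegrated retroviral DNA, was at 0.64 ± 0.17 (SE), and 0.35 after the correction. Zfp644, which works with the histone methyltransferases Ehmt1 and Ehmt2, was at 0.48 ± 0.14, and 0.15 after it. Zfp809, which recognises the primer binding site of murine leukaemia viruses, was at -0.49 ± 0.22 and not called. Zfp568, a repressor of a placental Igf2 promoter, was at 0.01 ± 0.29, and Zfp932, a repressor of endogenous retroviruses, at 0.49 ± 0.45. Zfp521 (0.01 ± 0.11) and Zfp536 (-0.28 ± 0.17), regulators of neural differentiation, and Zfp598 (-0.47 ± 0.19), a ubiquitin ligase that senses collided ribosomes, were not called. Zfp687, Zfp592 and Zfp532, which form a complex, were at -0.48, -0.23 and -0.23. Zfp609 (0.11), Zfp703 (-0.28), Zfp704 (0.19), Zfp711 (0.60), Zfp746 (-0.14) and Zfp827 (0.01) were not called either. None of the 17 was called in early mice, where their log2 fold changes lay between -0.58 and 0.23.

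Transcripts of the proteins through which KRAB acts were measured for 28 of 29 listed genes, and the proteins themselves were not. In late mice 3 (10.7%) were called higher and 1 (3.57%) lower, where 5.33% and 6.72% of all genes were. Trim28, the co-repressor itself, was at -0.41 ± 0.15 (SE) and Setdb1 at -0.18 ± 0.12, and neither was called. Those called higher were Mphosph8 (0.71 ± 0.23), which reads methylated histone H3, the chromatin remodeller Smarcad1 (0.55 ± 0.14) and the modifier Sumo2 (0.59 ± 0.18), and the one called lower was Ehmt2 (-0.77 ± 0.20), with 60.8% GC. After the correction these were 0.47, 0.26, 0.32 and -0.13, and 0 were called. In early mice 0 partners were called. The other 189 tested Zfp genes, with numbers outside this range, had 17 (8.99%) called higher and 14 (7.41%) lower in late mice and a median of 0.15, the same as that of the members, and 0 were called in early mice or after the correction.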

How the data were processed

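RNA sequencing of lumbar spinal cord of 22 mice in 4 groups was used, with groups from the treatment and timing labels. Early SAFit2 libraries carry SAFit1 in their titles, and the treatment label was followed. The labels give the early injection days as 3 and 4, and the design text day -3. According to the methods and the submitters' processing notes, the authors trimmed reads with Trimmomatic, aligned them with HISAT2 to mm10, counted genes with featureCounts and scaled them by TMM in edgeR. The deposited values are log2 CPM. The reads behind them came out whole (tolerance 0.02 reads) and gave the depth. Each group mean is limited by the number of mice, and genes with few reads by counting error. The methods take the individual animal as the experimental unit.

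Comparisons were fitted in R 4.3.3 with limma 3.58.1 (variance trend, 1 mean per group, all 22 mice, genes of at least -1 log2 CPM in 5 libraries), with Benjamini-Hochberg adjustment over 16765 genes. Single genes and GC slopes in early mice were compared by two-sided exact permutation. GC content, length and coding features came from the longest transcript or coding sequence in GENCODE M21 (GRCm38). A finger was counted where 2 cysteines 2 residues apart were followed after 12 residues by 2 histidines 3 to 5 residues apart. The GC and length correction removed from each library a loess trend (span 0.5). The same fit was also run on simulated reads without a GC trend between libraries, and nothing here rests on the outcome. Tables and plots used Python 3.11.15, numpy 2.4.6, pandas 2.3.3, scipy 1.17.1 and matplotlib 3.10.9.

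Genes named in the text are Zfp560, Zfp808 and Zfp991, the 5 members of lowest p in each direction in late and in early mice, the 5 with the highest level per kilobase, members with textbook roles, those whose late groups do not overlap and 5 that share most 75-base runs, with others marked as chosen after their values were seen or listed for their size. The members and lists were chosen with earlier results of these data known. Alternatives were no filter, a stricter filter (at least 1 log2 CPM), pseudocounts of 0.5 and 2, quantile normalization, centring on the median, weights for library quality, robust estimation, a fit without variance trend, a fit of only the 11 mice compared, the GC and length correction, blocking by replicate number, both together, limma voom and the omission of each mouse in turn. Added after seeing the data were scaling without the 20 most abundant genes, genes with a GC value without correction, and members sharing under 10% of runs.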

Additional observations from a re-analysis of the deposited data

Results flagged for a closer look

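In each of the 4 groups, Dixon's test was run on the 48 named genes and on the GC slope of the libraries. In these 196 tests 23 values stood apart from the rest of their group, all of them levels of genes. The test flags about 1 in 20 groups by chance. All values here are log2 CPM.

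Early Vehicle mouse 4 was low for Zfp982 at -2.42 (others 3.22 to 4.01), Zfp558 at -1.57 (others 1.12 to 1.57), Zfp712 at 0.55, Zfp568 at 0.82 and Zfp968 at 1.60. Late Vehicle mouse 6 was high for Zfp638 at 7.40, Zfp708 at 3.73 (others 1.96 to 2.30) and Zfp711 at 4.80, and low for Zfp575 at -0.26 (others 1.79 to 2.45), Zfp536 at 3.14 and Zfp827 at 4.34. Among the other Early Vehicle mice, mouse 1 had 6.55 of Zfp638.

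Early SAFit2 mouse 1 had 4.50 of Zfp532, 2.30 of Zfp668 and 3.07 of Zfp708. Early SAFit2 mouse 2 had 1.09 of Zfp558, 5.39 of Zfp704 and 4.00 of Zfp983. Early SAFit2 mouse 3 had 3.00 of Zfp950 and mouse 5 had 6.84 of Zfp664. In Late SAFit2 mice, mouse 1 had 1.56 of Zfp809 and 4.78 of Zfp827, and mouse 5 had 3.60 of Zfp532.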

How the results depend on the processing

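The count of members called higher in late mice (27) was 0 with GC and length correction, 0 with that correction and the replicate block, 63 with library quality weights, 16 with limma voom, 2 without a variance trend, 42 with the replicate block and 0 with only the 11 late mice. Members called lower (13) came to 0, 0, 30, 6 and 4 in the first 5 of these settings, 8 with quantile normalization and 0 with the 11 mice. KRAB partners called (4) came to 0, 0, 15, 2 and 0 in the first 5, 2 with quantile normalization, 9 with the replicate block and 0 with the 11 mice. Other Zfp genes called (31) came to 0, 0, 82, 15 and 1 in the first 5 and 0 with the 11 mice. Members called lower in Late than in Early Vehicle mice (19) came to 72 with quality weights, 29 with voom, 12 with median centring and 40 with scaling without the 20 most abundant genes, and those called higher (0) to 5 with the correction, 5 with correction and block, 13 with quality weights and 2 with median centring. For most of these settings the share of all genes called is not given here. Nothing is read about the members from these shifts, and their cause was not tested.

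Leaving out each mouse in turn gave 0 to 54 members called higher and 0 to 24 lower in late mice, 0 to 13 KRAB partners and 0 to 69 other Zfp genes. It gave 9 to 36 members lower and 0 to 1 higher in Late than in Early Vehicle mice, with 9 without Early Vehicle mouse 5 and 36 without Late Vehicle mouse 6. The share of all genes called in these runs is not given here. The late difference in GC slope ranged from -0.56 to -0.40. Early log2 fold changes changed sign in 3 of 323 alternatives over 12 genes: Zfp560 to 0.0029 without Early SAFit2 replicate 3 (-0.25 to 0.0029 over the mice left out), and Zfp712 to -0.060 and Zfp950 to 0.039 with quality weights. Late values changed sign in 0 of 351 alternatives over 13 genes. Those 13 genes were named for their late values in the same mice, so nothing is read from the kept signs. No member was called in early mice in any alternative run.

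Replicate numbers are shared between groups only as names. Residual correlations within pairs ranged from -0.236 to 0.317, so the block above is not a paired analysis. Members of few reads, such as Zfp541, are limited by depth.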
